A study of Mus musculus with 18 samples.

Results

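Genes for histone and DNA modifying enzymes were followed in purified B cells that had received a B-cell receptor stimulus in the animal, with and without an inhibitor of BTK. The set held 47 genes. Its members were the genes named on a list of chromatin modifiers that had a probe set with a single gene symbol on the array, and each was read from 1 probe set, the one with the highest mean over all arrays. All 47 passed the filter on low signal, out of 11104 genes tested and 18193 genes named on the array.

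All samples were CD23+ B lymphocytes from the spleen of the C57BL/6J mouse strain, with no genetic change named in any group. CD23 is the low-affinity IgE receptor of follicular B cells. The 4 groups were stimulated cells of PF-303-treated mice (anti-IgD with PF-303, 5 arrays), stimulated cells of vehicle-treated mice (anti-IgD with vehicle, 4 arrays), unstimulated cells of PF-303-treated mice (PBS with PF-303, 5 arrays) and unstimulated cells of vehicle-treated mice (PBS with vehicle, 4 arrays). PF-303 inhibits BTK, a kinase that carries the signal of the B-cell receptor, and anti-IgD crosslinks that receptor on mature B cells. The drug or vehicle came 2 h before anti-IgD or PBS, and cells were harvested 2 h after it. Age and sex are not given in the sources used here, nor whether the arrays come from different animals. The p-values therefore rest on differences among arrays of a group, some of which can be technical.

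Chromatin modifiers set, remove or read chemical marks on histones and on DNA. Polycomb complexes are known for marking silent genes, the KMT2 enzymes for methylating histone H3 at active promoters and enhancers, acetyltransferases and deacetylases for adding and removing acetyl groups, and DNMT and TET enzymes for methylating DNA and oxidising that methyl mark. In B cells many of these genes are known for roles in germinal centre responses, and several are mutated in lymphomas. The arrays measured the RNA of these genes, not enzyme activity and not the marks.

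The anti-IgD responses of 5 of the 47 members differed between PF-303 and vehicle at a limma adjusted p under 0.05, 2 upward and 3 downward. Among all genes tested 6.66% differed upward and 3.12% downward. Of the 5 differences, that of Kdm2b alone passed in all 31 alternative fits. The sequences at the starts of these 5 genes are shown first as context for these members. RefSeq promoter windows on build GRCm38.p6 were found for 39 of the 47 members by symbol. The stretches printed run from 250 bases before the annotated start to 30 bases after it, 5′ to 3′ on the gene's strand. Kdm2b and Hdac7 each had 4 annotated starts, of which the most upstream and the most downstream are shown, and the arrays do not tell which start was used. The windows are chr5:122989070-122989349 and chr5:122900321-122900600 for Kdm2b (minus strand), chr11:79992856-79993135 for Suz12 (plus strand), chr10:36974294-36974573 for Hdac2 (plus strand), chr11:102230143-102230422 for Hdac5 (minus strand), and chr15:97844473-97844752 and chr15:97814834-97815113 for Hdac7 (minus strand). Capitals mark matches, on either strand, to the letters of 6 motifs: the E-box CACGTG, the CRE core TGACGT, the AP-1 motif TGANTCA, the FOXO motif TGTTTAC, the EGR motif GCGNGGGCG and the MEF2 motif CTANNNNTAG.
Kdm2b upstream start: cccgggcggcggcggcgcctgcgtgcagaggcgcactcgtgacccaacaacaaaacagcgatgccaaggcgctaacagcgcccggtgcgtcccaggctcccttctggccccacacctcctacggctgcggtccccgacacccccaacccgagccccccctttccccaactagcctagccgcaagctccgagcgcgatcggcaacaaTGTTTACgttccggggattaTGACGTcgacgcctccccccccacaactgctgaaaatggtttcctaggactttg
Kdm2b downstream start: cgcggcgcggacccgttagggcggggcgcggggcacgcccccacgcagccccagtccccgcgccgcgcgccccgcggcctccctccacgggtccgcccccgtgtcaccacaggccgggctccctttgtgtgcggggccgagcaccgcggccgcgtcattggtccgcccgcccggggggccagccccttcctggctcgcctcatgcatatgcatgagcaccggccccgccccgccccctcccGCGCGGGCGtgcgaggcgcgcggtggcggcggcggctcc
Suz12: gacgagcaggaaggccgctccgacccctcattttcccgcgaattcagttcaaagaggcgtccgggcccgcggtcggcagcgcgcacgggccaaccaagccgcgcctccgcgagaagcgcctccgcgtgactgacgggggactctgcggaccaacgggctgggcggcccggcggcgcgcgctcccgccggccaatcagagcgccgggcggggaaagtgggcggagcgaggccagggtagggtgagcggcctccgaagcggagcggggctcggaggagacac
Hdac2: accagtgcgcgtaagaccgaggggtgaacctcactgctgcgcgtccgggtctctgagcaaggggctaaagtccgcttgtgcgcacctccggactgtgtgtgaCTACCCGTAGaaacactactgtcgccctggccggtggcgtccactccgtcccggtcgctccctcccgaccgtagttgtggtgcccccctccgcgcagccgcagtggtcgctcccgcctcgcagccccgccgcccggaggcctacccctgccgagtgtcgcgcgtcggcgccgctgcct
Hdac5: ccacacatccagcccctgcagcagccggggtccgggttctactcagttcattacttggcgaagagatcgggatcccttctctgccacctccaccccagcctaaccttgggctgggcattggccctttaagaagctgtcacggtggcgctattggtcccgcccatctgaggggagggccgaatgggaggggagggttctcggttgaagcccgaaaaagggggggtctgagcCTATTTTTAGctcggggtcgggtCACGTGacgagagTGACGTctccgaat
Hdac7 upstream start: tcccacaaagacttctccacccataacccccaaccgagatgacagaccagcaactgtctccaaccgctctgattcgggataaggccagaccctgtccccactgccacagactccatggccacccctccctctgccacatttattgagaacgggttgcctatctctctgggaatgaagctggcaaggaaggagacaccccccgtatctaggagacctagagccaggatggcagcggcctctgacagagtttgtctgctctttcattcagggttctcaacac
Hdac7 downstream start: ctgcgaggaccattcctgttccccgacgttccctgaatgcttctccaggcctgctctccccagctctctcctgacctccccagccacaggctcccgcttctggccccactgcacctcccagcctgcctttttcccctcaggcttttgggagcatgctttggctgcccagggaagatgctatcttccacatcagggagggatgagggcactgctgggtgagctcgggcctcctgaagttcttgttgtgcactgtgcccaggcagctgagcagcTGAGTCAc

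None of the marked matches overlapped another. The Hdac5 window held an E-box, a CRE core and a MEF2 match, the last one at -20 to -11 from the start. The Hdac2 window held a MEF2 match, the upstream Kdm2b window a FOXO match and a CRE core, the downstream Kdm2b window an EGR match and the downstream Hdac7 window an AP-1 match. No match was present in the Suz12 window or the upstream Hdac7 window. Of the windows not printed, an Hdac7 window held a FOXO match at -111 to -105. A Kdm2b window not printed held the same EGR stretch, there at 9 to 17, and the remaining windows of these genes held no match. Over all 32817 promoter windows of 300 bases, 7.15% held the E-box, 7.51% the CRE core, 7.81% the AP-1 motif, 3.65% the FOXO motif, 5.56% the EGR motif and 3.69% the MEF2 motif. Counted by gene, the share of the 39 members with at least 1 match was above that of the 27025 genes with a window for each motif: 30.8% against 6.27% for EGR, 15.4% against 8.09% for the E-box, 12.8% against 8.97% for AP-1, 10.3% against 4.05% for FOXO, 10.3% against 8.37% for the CRE core and 5.13% against 4.23% for MEF2. The members had 58 windows for 39 genes, against 32817 for 27025, and a gene with more windows has more chances of a match. Counted by window, the members were below all windows for the CRE core (6.9%) and MEF2 (3.45%). By that count they were above for EGR (22.4%), the E-box (12.1%), AP-1 (10.3%) and FOXO (6.9%). The members' windows were also richer in G and C, with a median of 67% against 52.7% for all windows. A match describes the letters in a window and says nothing about binding.

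The cells were checked against marker genes. Of the 7 B-cell markers on the array, 6 read 1029 or more on every array, among them Fcer2a, the gene of CD23, at 1543 to 2979 and Cr2 at 2165 to 3473, and Pax5 read 69.1 to 210.1. Of the 7 T-cell markers on the array, 4 passed the filter, with Cd8a at 20.5 to 45.6, Lat at up to 50.1, Cd3d at up to 35.2 and Cd3g at up to 27.2, while Cd3e stayed at or under 12.5 and Cd4 at or under 3.55. The 7 T-cell signals summed to 63.0 to 154 in anti-IgD with PF-303, 71.7 to 114 in anti-IgD with vehicle, 57.5 to 149 in PBS with PF-303 and 72.3 to 135 in PBS with vehicle. The summed signal of the 7 B-cell markers on the array was 20083 to 29473 in anti-IgD with PF-303, 14237 to 16930 in anti-IgD with vehicle, 19931 to 34475 in PBS with PF-303 and 19989 to 37385 in PBS with vehicle, and 5 of the 7 were called lower in the vehicle response. Of the 7 macrophage markers on the array, Lyz2 was the brightest, at 533 to 2426, and 1 was called higher in the vehicle response. Summed macrophage markers were 1538 to 3204 in anti-IgD with PF-303, 905 to 3178 in anti-IgD with vehicle, 1316 to 2358 in PBS with PF-303 and 1504 to 2130 in PBS with vehicle. For 5 markers of marginal zone B cells the sums were, in the same order, 5283 to 6481, 3756 to 4323, 5292 to 6376 and 4936 to 6179. In the vehicle response 4 of these 5 were called lower and 1 higher. Summed signals reached at most 858 for neutrophil, 422 for erythroid and 158 for NK-cell markers. In 6 arrays the spike-in RNA signal was over 2 times the median (2 each of anti-IgD with PF-303, PBS with PF-303 and PBS with vehicle, none of anti-IgD with vehicle). The part of the marker genes in the results below was not tested, and calls that changed without the 6 arrays are named with each comparison. In such bulk samples, fewer cells of a type and less RNA per cell cannot be told apart.

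In vehicle-treated mice, anti-IgD was followed within 2 h by changes in 27 of the 47 members. Called higher were 6 members, and called lower were 21. Kdm2b had the largest rise, and the class IIa deacetylases Hdac7 and Hdac5, the acetyltransferase Kat2b and the methyltransferase Kmt2a the largest falls. A call means an adjusted p under 0.05 in limma, with Benjamini-Hochberg adjustment over all 11104 genes. Across all genes tested 17.4% were called higher and 30.6% lower, so on the deposited scale more genes were called lower than higher. The vehicle counts by class given below have these shares as their background. The median log2 fold change of the 47 members was -0.25, against -0.13 for all genes. When all arrays were shifted to one median, the median of all genes became 0.04 and that of the members -0.08, with 10 members called higher and 18 lower. Of all 11104 genes, 2777 were called higher and 2178 lower after that shift, so the excess of lower calls among all genes depended on the scaling. No called member changed sign under that shift or under quantile normalization. The labels carry a position code for each sample, and with its row letter as a block the vehicle calls of Ehmt2, Hdac2, Smarca4, Tet2 and Tet3 were not made, while Ezh2 (-0.32), Kmt2c (-0.38) and Kat6b (-0.43) were called lower. Rows and groups were unevenly crossed. Row D held a lone array, of anti-IgD with vehicle, and only row C held arrays of both vehicle groups. Row and group can therefore not be fully told apart in the fits with this block, here and below. Without the 6 high spike-in arrays the vehicle calls of Kmt2e (-0.21), Ehmt2 (-0.27) and Tet3 (-0.52) were not made, and Dot1l was called higher (0.36) and Kat7 lower (-0.30).

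**Figure D1:**
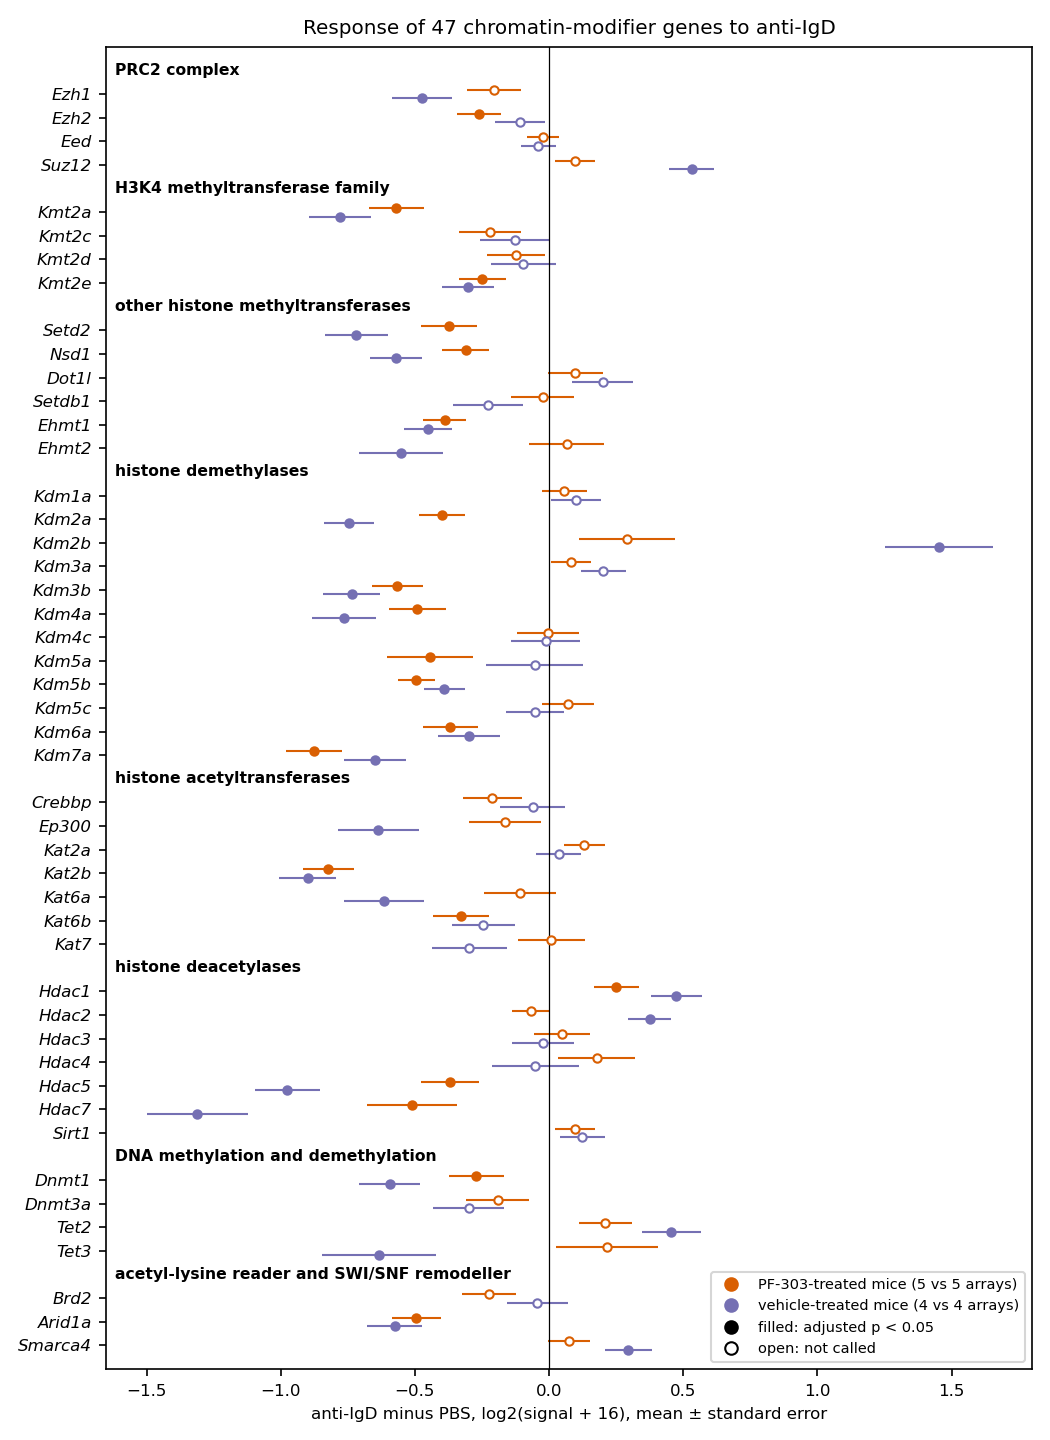
Log2 fold changes of anti-IgD over PBS (x axis, log2(signal + 16), with standard errors) for the 47 members by class, in PF-303-treated mice (orange) and vehicle-treated mice (purple). Filled points passed an adjusted p of 0.05 in limma. Kdm2b lies at 0.29 with PF-303 and stands out to the right at 1.45 with vehicle, and Hdac7 furthest to the left at -1.31 with vehicle.

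Kdm2b encodes a histone H3 lysine 36 demethylase with a domain that binds unmethylated CpG sites, and it brings a variant Polycomb complex 1 to CpG islands. Its signal was 516, 721, 516, 510.4 and 704 in anti-IgD with PF-303, 1282, 1173, 1406 and 1633 in anti-IgD with vehicle, 504, 606, 339, 399 and 590.0 in PBS with PF-303, and 637, 685, 361 and 358 in PBS with vehicle. The 4 arrays of anti-IgD with vehicle lay above all others, and the other 3 groups overlapped. In PF-303-treated mice the response of Kdm2b to anti-IgD was 0.29 ± 0.18 on the log2 scale (SE, limma adjusted p = 0.234). Anti-IgD raised Kdm2b by 1.45 ± 0.20 on the log2 scale in vehicle-treated mice (SE, limma adjusted p = 3.1e-06), 2.74-fold on signals with 16 added. In stimulated cells PF-303 lowered it (-1.20 ± 0.19, SE, limma adjusted p = 5.22e-05). The difference between both responses was -1.16 ± 0.27 (SE, limma adjusted p = 0.00861).

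Within each PBS group the lower Kdm2b signals came from the 2 arrays with high spike-in signal. A second Kdm2b probe set did not show that split. It read 410.3, 385, 352, 394 and 382 in anti-IgD with PF-303, 791, 716, 763 and 985 in anti-IgD with vehicle, 266, 285, 260.2, 314 and 256 in PBS with PF-303, and 347, 323, 293 and 327 in PBS with vehicle. Here too the arrays of anti-IgD with vehicle stood above all others, and in PF-303-treated mice the anti-IgD arrays also lay above the PBS arrays. On this probe set the response was 0.46 in PF-303-treated mice, now called (limma adjusted p = 0.000207), and 1.29 ± 0.09 (SE) in vehicle-treated mice. Kdm2b was lower with PF-303 in stimulated cells (-1.04 ± 0.09, SE), and the difference between the responses was -0.83 ± 0.12 (SE).

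Of the 4 PRC2 genes, which encode the complex that methylates histone H3 at lysine 27, Suz12 was called higher in the vehicle response and Ezh1 lower. Suz12 is the scaffold subunit of the complex. Its signal was 734, 703, 665, 789 and 764 in anti-IgD with PF-303, 947, 878, 917 and 949.8 in anti-IgD with vehicle, 657, 667, 664, 689.6 and 732 in PBS with PF-303, and 672, 732, 611 and 534 in PBS with vehicle. The arrays of anti-IgD with vehicle did not overlap any other group. The response of Suz12 was 0.10 ± 0.08 (SE, limma adjusted p = 0.358) in PF-303-treated mice, and it rose by 0.53 ± 0.08 (SE, limma adjusted p = 1.68e-05) in vehicle-treated mice. With PF-303 it was lower in stimulated cells (-0.33 ± 0.08, SE, limma adjusted p = 0.00281), and the difference between the responses was -0.44 ± 0.11 (SE, limma adjusted p = 0.0171). Without those 6 high spike-in arrays this difference was -0.26, and on the second probe set it was -0.45 (limma adjusted p = 0.0687), not called in either case.

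Neither alternative catalytic subunit of PRC2 was called higher. Ezh1, the form known from resting cells, was at -0.21 in PF-303-treated mice (limma adjusted p = 0.123) and fell by 0.47 on the log2 scale in vehicle-treated mice (limma adjusted p = 0.00124). Ezh2, the form known from dividing cells, was called lower at -0.26 with PF-303 (limma adjusted p = 0.0176) and stood at -0.11 with vehicle (limma adjusted p = 0.353). That call ended without PBS with PF-303 replicate 5, at -0.20. The difference between the responses was not called for Ezh1 (0.27) or Ezh2 (-0.15), nor was any change of Eed, the subunit that binds the methyl mark, at -0.02 with PF-303 and -0.04 with vehicle.

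The 7 histone deacetylases held calls in both directions. Hdac1 and Hdac2, close class I relatives that work in the same nuclear repressor complexes, were called higher in the vehicle response. Hdac5 and Hdac7, class IIa enzymes that shuttle between nucleus and cytoplasm and repress MEF2 targets, were called lower. Hdac3 (-0.02), Hdac4 (-0.05) and the NAD-dependent deacetylase Sirt1 (0.12) were not called.

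Hdac7 read 152, 125, 119, 141 and 116 in anti-IgD with PF-303, 113, 93.0, 56.3 and 94.2 in anti-IgD with vehicle, 194, 177, 259, 160.1 and 182 in PBS with PF-303, and 182, 190.4, 247 and 378 in PBS with vehicle. Both anti-IgD groups lay below both PBS groups, and the arrays of anti-IgD with vehicle were all below those of anti-IgD with PF-303. The change was -0.51 ± 0.17 (SE, limma adjusted p = 0.0218) in PF-303-treated mice and -1.31 ± 0.19 (SE, limma adjusted p = 5.14e-06) in vehicle-treated mice. With PF-303 the stimulated cells were higher (0.50 ± 0.18, SE, limma adjusted p = 0.0366), and the responses differed by 0.80 ± 0.25 (SE, limma adjusted p = 0.0477).

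The last of these Hdac7 calls ended when any 1 of 13 arrays was left out (anti-IgD with PF-303 replicates 1 to 4, anti-IgD with vehicle 2, 4 and 5, PBS with PF-303 1, 2, 4 and 5, PBS with vehicle 3 and 4), with values of 0.59 to 0.83. The PF-303 effect on Hdac7 in stimulated cells ended without any 1 of 6 arrays (anti-IgD with PF-303 replicates 1, 2 and 4, anti-IgD with vehicle 2, 4 and 5), with values of 0.33 to 0.54, and the response in PF-303-treated mice without anti-IgD with PF-303 replicate 5 or PBS with PF-303 replicate 3 (-0.47 and -0.41). The vehicle response was called in every fit that left out 1 array. A second, dimmer Hdac7 probe set also fell in vehicle-treated mice (-0.79), and its difference between the responses was 0.37, not called.

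Hdac5 read 142, 144, 152, 117 and 129 in anti-IgD with PF-303, 96.8, 79.0, 87.5 and 99.8 in anti-IgD with vehicle, 179, 161, 220.2, 184 and 164 in PBS with PF-303, and 170.4, 167, 258 and 189.7 in PBS with vehicle. All 4 arrays of anti-IgD with vehicle were at 99.8 or lower, and the next higher group, anti-IgD with PF-303, lay between them and the PBS arrays without overlap. Hdac5 fell by 0.37 ± 0.11 on the log2 scale (SE, limma adjusted p = 0.0108) in PF-303-treated mice and fell by 0.98 ± 0.12 (SE, limma adjusted p = 7.51e-07) in vehicle-treated mice. In stimulated cells it was higher with PF-303 (0.51 ± 0.12, SE, limma adjusted p = 0.00157), and the responses differed by 0.61 ± 0.16 (SE, limma adjusted p = 0.0216). Without those 6 high spike-in arrays that difference was 0.46 and no longer called, and it was also lost when arrays were shifted to one median (0.48) or quantile normalized (0.49).

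Hdac2 read 384, 380.0, 366, 387 and 422 in anti-IgD with PF-303, 519, 530.2, 532 and 476 in anti-IgD with vehicle, 431, 436, 376, 372 and 423 in PBS with PF-303, and 436, 406, 343 and 389 in PBS with vehicle. The arrays of anti-IgD with vehicle stood above the rest, and the other 3 groups overlapped. Its response was -0.07 ± 0.07 (SE, limma adjusted p = 0.521) with PF-303 and a rise of 0.38 ± 0.08 (SE, limma adjusted p = 0.000485) with vehicle. Stimulated cells had less with PF-303 (-0.39 ± 0.08, SE, limma adjusted p = 0.000398), and the responses differed by -0.44 ± 0.11 (SE, limma adjusted p = 0.0115). With the position row as a block the vehicle response, the PF-303 effect and the difference of Hdac2 were not called. On the second probe set the difference was not called either.

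Hdac1 read 1146, 1153, 1182, 859 and 1089 in anti-IgD with PF-303, 1189, 1389, 1188 and 1418 in anti-IgD with vehicle, 889, 991, 846, 919 and 882 in PBS with PF-303, and 863, 969, 901 and 973 in PBS with vehicle. In PF-303-treated mice 4 of 5 anti-IgD arrays were above every PBS array, and in vehicle-treated mice all were. Hdac1 rose by 0.25 ± 0.08 (SE, limma adjusted p = 0.0256) with PF-303 and by 0.47 ± 0.09 (SE, limma adjusted p = 0.000267) with vehicle. The difference between the responses was not called (-0.22, limma adjusted p = 0.3). The rise with PF-303 lost its call without any 1 of 6 arrays (anti-IgD with PF-303 replicates 1, 2 and 3, PBS with PF-303 1, 3 and 5), at 0.22 to 0.25. In stimulated cells Hdac1 was lower with PF-303 by -0.26 (limma adjusted p = 0.0357), a call that ended without anti-IgD with PF-303 replicate 4 or 5 or anti-IgD with vehicle replicate 2 or 5, at -0.26 to -0.17.

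**Figure D2:**
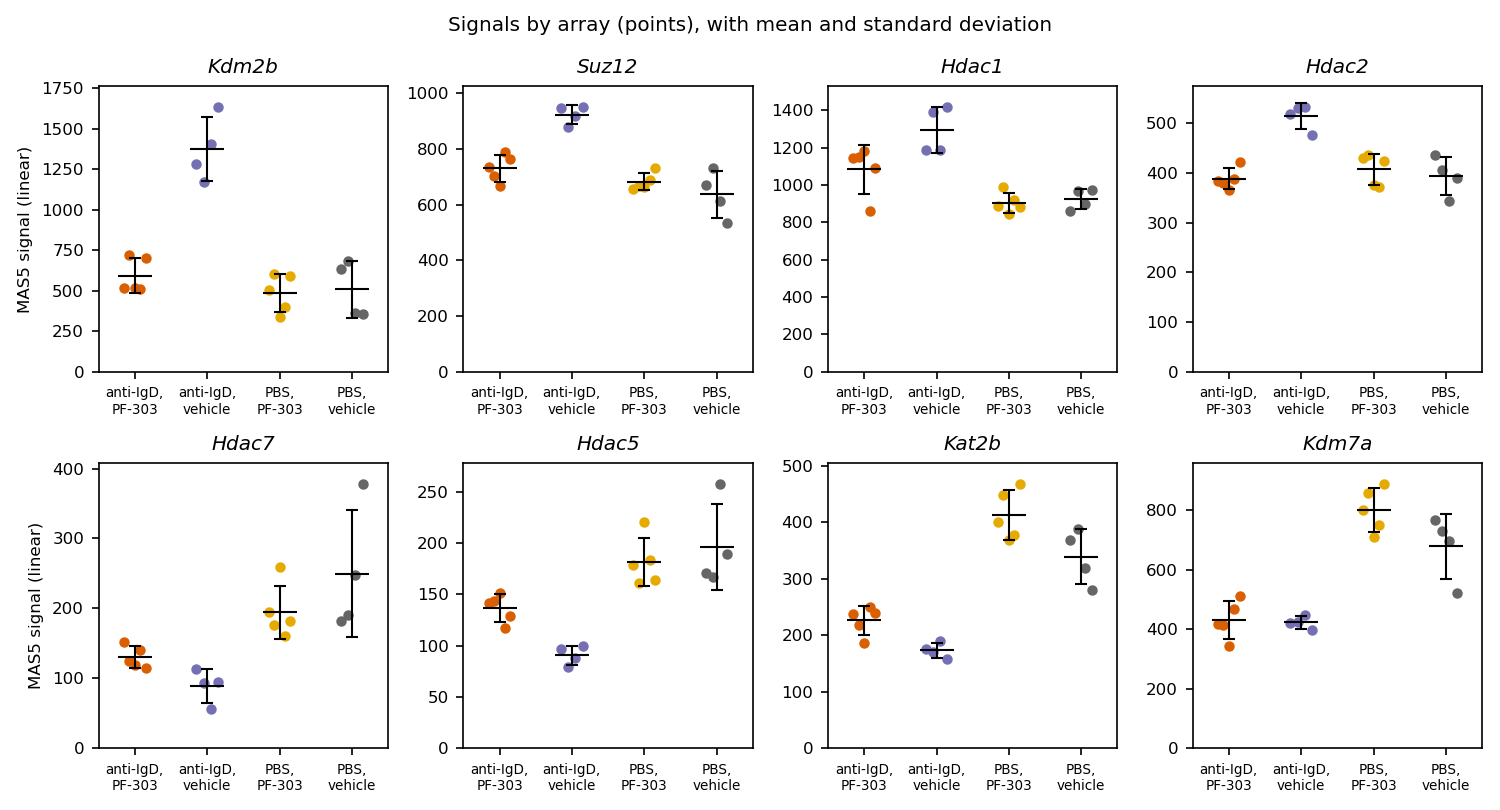
MAS5 signals (y axis, linear, from 0) of 8 members in the 18 arrays, by group, with group means and standard deviations. Kdm2b, Suz12, Hdac1 and Hdac2 are highest in anti-IgD with vehicle, Hdac7, Hdac5 and Kat2b are lowest there, and Kdm7a is low in both anti-IgD groups.

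The 7 acetyltransferases had 3 members called lower and none called higher in the vehicle response. Kat2b, also known as PCAF, acetylates histone H3 and is a coactivator. It read 238, 218, 187, 251 and 239 in anti-IgD with PF-303, 175, 170.4, 191 and 158 in anti-IgD with vehicle, 401, 449, 369, 377 and 468 in PBS with PF-303, and 369, 388, 319 and 280.4 in PBS with vehicle. Both anti-IgD groups lay below both PBS groups without overlap. The change was -0.82 ± 0.09 (SE, limma adjusted p = 4.85e-07) with PF-303 and -0.90 ± 0.11 (SE, limma adjusted p = 3.54e-07) with vehicle, and the difference between the responses was 0.08 ± 0.14 (SE, limma adjusted p = 0.804). In stimulated cells Kat2b was higher with PF-303 (0.35 ± 0.10, SE, limma adjusted p = 0.0108), while in unstimulated cells the PF-303 difference was 0.28 ± 0.10 (SE, limma adjusted p = 0.279). A second probe set with a mean signal of 17.4 gave -0.28 in each response, not called, and a dimmer probe set gave -0.66 with vehicle, called.

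The p300 acetyltransferase Ep300 and the MYST-family enzyme Kat6a were the others called lower with vehicle. Ep300 was at -0.16 with PF-303, not called, and -0.64 with vehicle. Kat6a was at -0.11 with PF-303, not called, and -0.61 with vehicle. The differences between the responses were 0.47 and 0.51 and did not pass the test (limma adjusted p = 0.153 and 0.118). With the position row as a block the difference for Ep300 was 0.84 and called (limma adjusted p = 0.0174). Crebbp, the close relative of Ep300, was at -0.06 with vehicle, and Kat2a, the close relative of Kat2b, at 0.04, neither called. Kat7 was at -0.30 (limma adjusted p = 0.0841). Kat6b was called lower with PF-303 at -0.33 and was at -0.25 with vehicle, the first a call that ended without PBS with PF-303 replicate 2 or 5 (-0.30 and -0.26).

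All 4 members of the KMT2 family had negative values in both responses, and Kmt2a and Kmt2e were called lower in each. Kmt2a, or MLL, methylates histone H3 at lysine 4 and keeps developmental genes active. It read 291, 236, 234, 304 and 276 in anti-IgD with PF-303, 257, 278, 299 and 198 in anti-IgD with vehicle, 339, 426, 393, 405 and 466 in PBS with PF-303, and 429, 409, 475 and 489.6 in PBS with vehicle. Both anti-IgD groups were below both PBS groups, and they overlapped each other. The change was -0.57 ± 0.10 (SE, limma adjusted p = 0.000151) with PF-303 and -0.78 ± 0.12 (SE, limma adjusted p = 7.41e-06) with vehicle. The PF-303 effect in stimulated cells was 0.06 (limma adjusted p = 0.737), but 0.40 with the position row as a block, called (limma adjusted p = 0.00967). Kmt2c (-0.13) and Kmt2d (-0.10), the enzymes of enhancer methylation, were not called with vehicle. Kmt2e, which lacks clear methyltransferase activity, was at -0.25 with PF-303, and its call ended without anti-IgD with PF-303 replicate 2, 3 or 4 or PBS with PF-303 replicate 3, 4 or 5, at -0.24 to -0.21. With vehicle Kmt2e was at -0.30, and its call ended without PBS with vehicle replicate 4 (-0.21).

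Of the other 6 histone methyltransferases, 4 were called lower with vehicle. Setd2 is the enzyme of histone H3 lysine 36 trimethylation. Its signal was 211 to 298 in anti-IgD with PF-303, 200.5 to 224 in anti-IgD with vehicle, 281 to 384 in PBS with PF-303 and 294 to 441 in PBS with vehicle, so the vehicle groups did not overlap and the PF-303 groups did. Setd2 fell by 0.37 on the log2 scale with PF-303 (limma adjusted p = 0.00746) and fell by 0.72 ± 0.12 with vehicle (SE, limma adjusted p = 2.38e-05). Nsd1, which dimethylates the same lysine, was called at -0.31 with PF-303 and -0.57 with vehicle. Ehmt1 and Ehmt2 are partners in dimethylating lysine 9. Ehmt1 was called at -0.39 with PF-303 and -0.45 with vehicle, and Ehmt2 stood at 0.07 with PF-303, not called, and -0.55 with vehicle. For Ehmt2 the difference between the responses was 0.62 ± 0.21 (SE, limma adjusted p = 0.0658), and its PBS with vehicle arrays ranged widely, at 253 to 500.4.

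Dot1l, which methylates histone H3 at lysine 79, was the one member of its class called with PF-303 in stimulated cells (-0.34, limma adjusted p = 0.0227). That call ended without anti-IgD with PF-303 replicate 2 or 3 or anti-IgD with vehicle replicate 1, at -0.30 to -0.29. Its vehicle response was 0.20 (limma adjusted p = 0.162), and it was called higher when arrays were shifted to one median (0.36). Setdb1, a lysine 9 methyltransferase that silences retroelements, was at -0.23 with vehicle (limma adjusted p = 0.162).

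Among the 12 histone demethylases, Kdm2b alone was called higher with vehicle and 6 were called lower. Kdm2a, the nearest relative of Kdm2b, was called lower, by -0.40 with PF-303 (limma adjusted p = 0.000794) and -0.75 with vehicle (limma adjusted p = 9.92e-07). Its signal was 221 to 276 in anti-IgD with PF-303, 165 to 236 in anti-IgD with vehicle, 300.0 to 339.8 in PBS with PF-303 and 331 to 354 in PBS with vehicle, and neither pair of anti-IgD and PBS groups overlapped. The difference between the responses was 0.35 for Kdm2a and did not pass the test (limma adjusted p = 0.0881). With PF-303 Kdm2a was higher in stimulated cells (0.28, limma adjusted p = 0.0227), and without anti-IgD with PF-303 replicate 1 or 4 or anti-IgD with vehicle replicate 2 or 5 that call was lost, at 0.19 to 0.25.

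Kdm4a, a demethylase of histone H3 lysines 9 and 36, read 168, 142, 142, 193 and 156 in anti-IgD with PF-303, 92.6, 122, 106 and 124 in anti-IgD with vehicle, 214, 229, 215, 243 and 251 in PBS with PF-303, and 234, 199, 153 and 219.9 in PBS with vehicle. In PF-303-treated mice every anti-IgD array was below every PBS array, and likewise in vehicle-treated mice. The change was -0.49 ± 0.11 (SE, limma adjusted p = 0.000924) with PF-303 and -0.76 ± 0.12 (SE, limma adjusted p = 1.39e-05) with vehicle. In stimulated cells Kdm4a was higher with PF-303 (0.47 ± 0.11, SE, limma adjusted p = 0.00293), and the difference between the responses was 0.27 ± 0.16 (SE, limma adjusted p = 0.313).

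Kdm7a, which removes methyl groups from lysines 9 and 27, had the largest fall of all members in PF-303-treated mice. Its signal was 418, 414, 343, 469.7 and 512 in anti-IgD with PF-303, 421, 425, 449 and 397 in anti-IgD with vehicle, 799, 856, 709.7, 751 and 889 in PBS with PF-303, and 766, 730.4, 697 and 521 in PBS with vehicle. The PBS groups lay above the anti-IgD groups, which overlapped each other. Kdm7a changed by -0.88 ± 0.10 (SE, limma adjusted p = 6.38e-07) with PF-303 and -0.65 ± 0.12 (SE, limma adjusted p = 7.07e-05) with vehicle, and the PF-303 effect in stimulated cells was 0.02 (limma adjusted p = 0.932). It had 2 other probe sets, which were called lower with vehicle as well, at -0.68 and -0.50.

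Kdm3b, a lysine 9 demethylase, was called lower in both responses (-0.57 with PF-303, -0.74 with vehicle), but its second probe set, with a mean signal of 34.6, gave 0.12 with PF-303 and 0.22 with vehicle, neither called. Its PF-303 effect in stimulated cells (0.27, limma adjusted p = 0.0493) ended without any 1 of 11 arrays (anti-IgD with PF-303 replicates 1, 4 and 5, anti-IgD with vehicle 1, 2 and 5, PBS with PF-303 1, 2, 4 and 5, PBS with vehicle 2), at 0.18 to 0.27. Kdm5b, a demethylase of lysine 4, was also called lower in each (-0.50 with PF-303, -0.39 with vehicle), as was the lysine 27 demethylase Kdm6a (-0.37 with PF-303, -0.30 with vehicle). The vehicle call of Kdm6a ended without any 1 of 6 arrays (anti-IgD with vehicle replicates 1, 4 and 5, PBS with vehicle 1, 2 and 4), at -0.31 to -0.22. Kdm5a was called lower with PF-303 at -0.44 but stood at -0.05 with vehicle. Its call ended without anti-IgD with PF-303 replicate 1 or 3 or PBS with PF-303 replicate 2, 3, 4 or 5, at -0.46 to -0.23, and the difference between the responses was not called (-0.39, limma adjusted p = 0.345). Kdm1a (0.10), Kdm3a (0.20, limma adjusted p = 0.0501), Kdm4c (-0.01) and Kdm5c (-0.05) were not called in either response.

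The DNA enzymes were split in direction. Dnmt1, the maintenance methyltransferase, fell by 0.27 on the log2 scale with PF-303 (limma adjusted p = 0.0434) and fell by 0.59 with vehicle (limma adjusted p = 0.000158). The first of these calls ended without any 1 of 10 arrays (all of anti-IgD with PF-303 but replicate 4, anti-IgD with vehicle 1 and 2, PBS with PF-303 2 to 5), at -0.29 to -0.22. Tet2, which oxidises the methyl mark and is mutated in blood cancers, read 218, 188, 161, 178 and 187 in anti-IgD with PF-303, 251, 214, 237 and 230.1 in anti-IgD with vehicle, 145, 167, 160.3, 129.7 and 197 in PBS with PF-303, and 173, 187, 138 and 167 in PBS with vehicle. The PF-303 groups overlapped, and the vehicle groups did not. The response of Tet2 was 0.21 with PF-303 (limma adjusted p = 0.115) and a rise of 0.46 ± 0.11 (SE, limma adjusted p = 0.00173) with vehicle. Tet3 changed by -0.63 with vehicle at signals of 17.3 to 67.9 in the 2 groups, close to background, and its call ended without anti-IgD with vehicle replicate 2 or PBS with vehicle replicate 4 (-0.56 and -0.47). Dnmt3a was at -0.30 and was not called (limma adjusted p = 0.0685).

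With PF-303, stimulated cells had more Dnmt1 (0.34, limma adjusted p = 0.0186) and less Tet2 (-0.30, limma adjusted p = 0.0346). The Dnmt1 call ended without anti-IgD with PF-303 replicate 4 or anti-IgD with vehicle replicate 5, at 0.25 and 0.26. The Tet2 call ended without any 1 of 7 arrays (anti-IgD with PF-303 replicates 2 to 5, anti-IgD with vehicle 1, 4 and 5), at -0.31 to -0.26, while a second Tet2 probe set gave -0.78 and was called.

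Of the reader and remodeller genes, the SWI/SNF ATPase Smarca4 was called higher with vehicle (0.29, limma adjusted p = 0.00812) and the SWI/SNF subunit Arid1a lower. Arid1a read 642 to 860.1 in anti-IgD with PF-303, 659.8 to 822 in anti-IgD with vehicle, 891 to 1136 in PBS with PF-303 and 983 to 1198 in PBS with vehicle. In both treatments the anti-IgD arrays lay below the PBS arrays, and the change was -0.49 with PF-303 (limma adjusted p = 0.000195) and -0.58 ± 0.10 with vehicle (SE, limma adjusted p = 7.15e-05). Brd2, which binds acetylated histones, was at -0.22 with PF-303 and -0.04 with vehicle, neither called.

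Several members were read by more than 1 probe set. The 27 members called with vehicle had 41 further probe sets, of which 21 were called the same way, none the opposite way and 20 not at all. Of the 41, 36 had the same sign as the probe set used. On the probe set with the second highest mean, the vehicle calls of Ehmt2 (-0.15), Nsd1 (-0.17), Smarca4 (0.10), Kat2b, Kat6a, Kdm5b and Kdm3b were not made. In PF-303-treated mice the calls not made there were those of Arid1a (-0.06), Kat2b, Kdm2a, Kdm3b, Kdm5b, Kmt2a, Nsd1 and Dnmt1. For the PF-303 effect in stimulated cells they were those of Dot1l, Dnmt1, Kat2b, Kdm3b and Hdac7, and for the difference between the responses those of Suz12, Hdac2 and Hdac7.

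**Figure D3:**
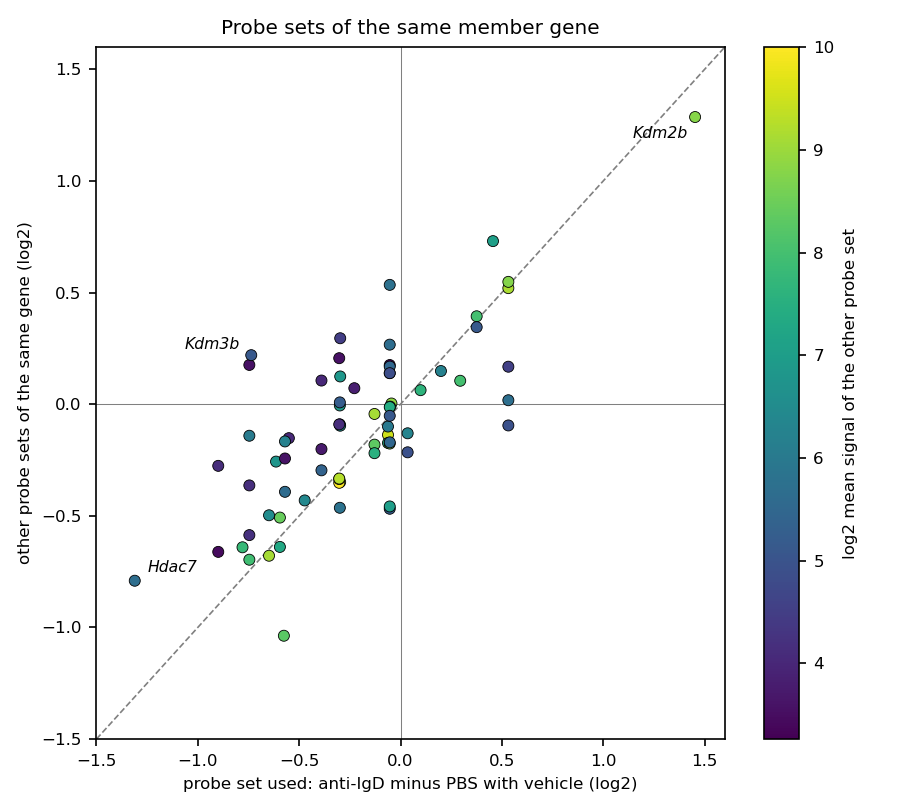
Log2 fold change of anti-IgD over PBS with vehicle on the probe set used (x axis) against the 72 other probe sets of 32 members (y axis), coloured by the log2 mean signal of the other probe set. The dashed line marks equal values. The second Kdm2b probe set lies near the line at 1.29, the second Kdm3b probe set above 0 at 0.22.

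Members were called with PF-303 in stimulated cells, at shares near those of all genes, and none passed the test in unstimulated cells. In stimulated cells 7 members were called higher with PF-303 and 6 lower, against 19.8% and 10.4% of all genes tested. The 7 were Kdm2a, Kdm3b, Kdm4a, Kat2b, Hdac5, Hdac7 and Dnmt1, at 0.27 to 0.51, and the 6 were Suz12, Dot1l, Kdm2b, Hdac1, Hdac2 and Tet2, at -1.20 to -0.26. The median of all 47 members was 0.05, against 0.08 for all genes. When arrays were shifted to one median, 2 members were called higher and 9 lower, with medians of -0.05 for the members and -0.03 for all genes, and with quantile normalization 4 higher and 6 lower. Of all 11104 genes, 1283 were called higher and 1695 lower after the shift, and 1559 and 1434 after quantile normalization. The shift ended the calls of Kdm2a, Kdm3b, Kat2b, Hdac7 and Dnmt1, and the position row as a block those of Suz12, Dot1l, Kdm3b, Kdm4a, Hdac1, Hdac2, Hdac5, Hdac7 and Tet2. With that block Kmt2a (0.40), Nsd1 (0.37) and Ep300 (0.62) were called higher, and without the 6 high spike-in arrays Kdm2a (0.26) was not called. This comparison shares the arrays of anti-IgD with vehicle with the vehicle response. In unstimulated cells limma called 0 members, with 6 at an unadjusted p under 0.05, against 0.072% of all genes called higher and 0.675% lower. The largest values there were -0.43 for Tet3 and 0.28 for Kat2b. Without PBS with vehicle replicate 2, Kat2a was called lower (-0.36).

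In PF-303-treated mice, 1 member was called higher after anti-IgD (Hdac1) and 19 lower, against 14.7% and 19.1% of all genes. With the position row as a block the calls of Setd2, Kmt2e, Kdm5a, Kdm6a, Kat6b, Hdac1, Hdac7 and Dnmt1 were not made. Without the 6 high spike-in arrays those of Hdac1 (0.16), Kdm5a (-0.11) and Dnmt1 (-0.22) were not made, and Ezh1 (-0.32) and Kat6a (-0.30) were called lower. The responses of the members to anti-IgD can be set side by side because the PF-303 and vehicle pairs share no array. Of the 21 members called lower with vehicle, 16 were called lower with PF-303 too, which is 16 of the 19 lower there, and 18 had a value closer to 0. All 6 members called higher with vehicle had a smaller value with PF-303, and Hdac1 was the one of them called. Members picked by a call with vehicle tend to read closer to 0 in other arrays because of the picking. These counts therefore do not test whether the response was smaller with PF-303, and the interaction given below does. Ezh2, Kdm5a and Kat6b were called lower with PF-303 and not with vehicle. The sign was the same in both responses for 40 of the 47 members, and the absolute value was smaller with PF-303 for 33. The matching shares over all genes are not given here, so it is not shown that this pattern is particular to the members. Across the 47 members Pearson's r between the responses was 0.71, given as a description since genes are not independent and were read on the same arrays.

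**Figure D4:**
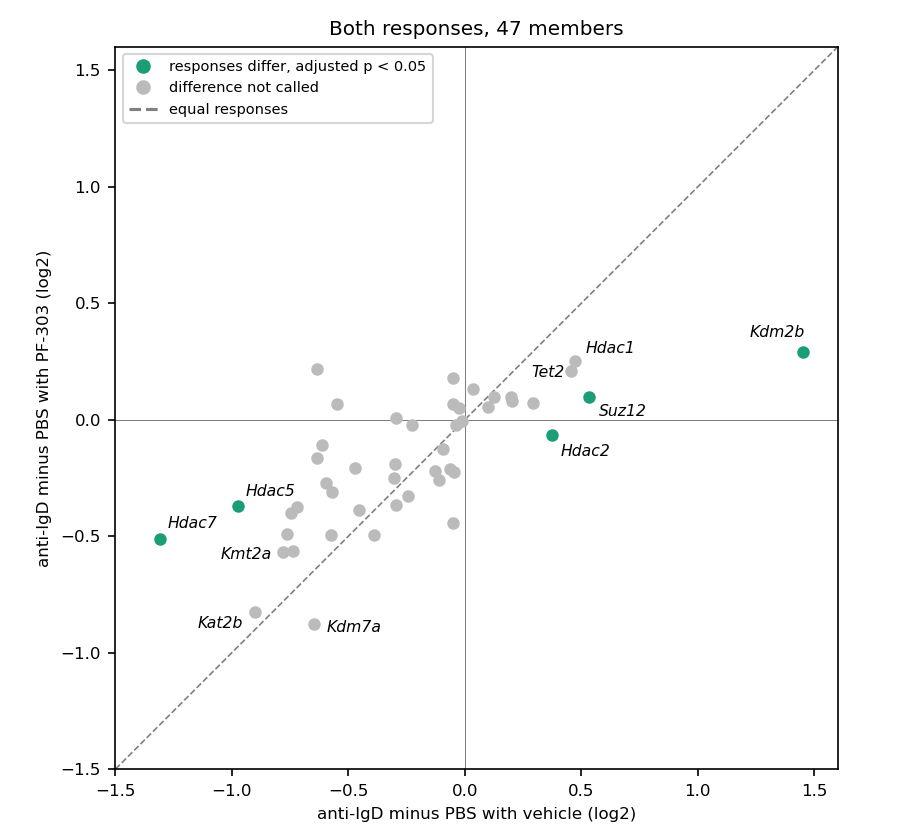
Log2 fold change of anti-IgD over PBS with PF-303 (y axis) against the same with vehicle (x axis) for the 47 members. Points on the dashed line respond equally. Green points are the 5 members whose responses differed in limma (Kdm2b, Suz12, Hdac2, Hdac5, Hdac7), and Kat2b and Kdm7a lie near or below the line.

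The difference between the responses was itself tested, as an interaction. It was called for 5 members, 2 higher (Hdac5 and Hdac7, whose fall was smaller with PF-303) and 3 lower (Suz12, Kdm2b and Hdac2, whose rise was smaller), against 6.66% and 3.12% of all genes. The median over all members was 0.06, against 0.07 for all genes. After the shift to one median or quantile normalization 3 members were called lower and 0 higher, with medians after the shift of -0.06 for the members and -0.05 for all genes. Of all 11104 genes, 345 were called higher and 689 lower after the shift, and 497 and 438 after quantile normalization. With the row of the position code as a block the differences for Suz12 (-0.43), Hdac2 (-0.34), Hdac5 (0.40) and Hdac7 (0.70) were not called, while those for Kmt2a (0.65), Kdm2a (0.60), Ep300 (0.84) and Dnmt1 (0.66) were. Without the 6 high spike-in arrays those for Suz12, Hdac5 and Hdac7 (0.49) were not called. The difference for Kdm2b was called in all 31 alternative fits. The other 42 members were not called in the fit to all arrays without a block. At the median standard error of 0.17 for this comparison, small differences could not be seen.

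Other chromatin genes were counted from lists that hold no member. Of 56 other histone and DNA modifying enzymes tested (61 listed), 17 were called higher and 23 lower with vehicle, and of 72 partner subunits, readers and remodellers (79 listed), 15 higher and 20 lower. Among all genes tested 17.4% were called higher and 30.6% lower. The highest values were those of Kdm6b, the JMJD3 demethylase of histone H3 lysine 27 (2.73 ± 0.15, SE), of Jarid2, a PRC2 cofactor (1.46), of the histidyl hydroxylase Riox1 (1.40) and of the arginine methyltransferase Prmt6 (1.16). The lowest were those of Mta3, a subunit of the NuRD deacetylase complex (-1.05), of the Polycomb reader Cbx7 (-0.93), and of Hdac10 and the class IIa enzyme Hdac9 (-0.82 each). With PF-303 in stimulated cells 6 and 5 genes of these lists were called higher and 16 and 12 lower, with Mta3 (0.66), Kmt5c (0.46), Hdac10 (0.44) and Cbx8 (0.41) the highest and Kdm6b (-1.67), Riox1 (-0.90), Smyd5 (-0.85) and Dnmt3b (-0.78) the lowest. For all genes these shares were 19.8% higher and 10.4% lower.

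In PF-303-treated mice, 14 and 10 of these other genes were called higher after anti-IgD and 15 and 10 lower, with Kdm6b (1.63), Jarid2 (1.09), Prmt5 (0.81) and Chd3 (0.76) at the top and Mta3 (-0.58), Kdm1b (-0.57), Sirt3 (-0.56) and Smarca2 (-0.54) at the bottom. The shares of all genes there were 14.7% higher and 19.1% lower. The responses differed for 2 enzymes upward, Kmt5c (0.51) and Hdac10 (0.42), and for 7 enzymes and 3 partners downward, led by Kdm6b (-1.10), Riox1 (-0.84), Suv39h2 (-0.76) and Dnmt3b (-0.63). Of all genes 6.66% were called upward and 3.12% downward. In unstimulated cells 1 of these genes was called with PF-303, the Polycomb subunit Pcgf6 (-0.41).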

How the data were processed

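The 18 samples were hybridised to Affymetrix Mouse Genome 430 2.0 arrays from 150 ng of total RNA with a 3' IVT labelling kit, per the labels' protocols. The deposited intensity values are MAS5 signals per probe set, per the submitters' processing notes, and the deposited columns share one 2% trimmed mean of about 100.0 (99.96 to 99.97), so differences in total RNA between cells are not kept. The MAS5 version and settings are not given in the sources used here. The number of arrays limits the precision: the median standard error was 0.13 for the vehicle response and 0.17 for the difference between the responses.

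Of 45101 probe sets, 34945 had 1 gene symbol in the platform annotation, 932 had several and 9160 had none. Symbols were updated through RefSeq, and 204 of the single symbols were not matched and kept as they were. Genes were read from the probe set with the highest mean and kept when at least 4 arrays read above 15.2, which is the median signal of the whole table. limma 3.58.1 (R 4.3.3) was fitted to log2(signal + 16) with 1 mean per group over all 18 arrays and eBayes with a trend. Fold changes are on that scale, which understates the change of dim genes. The 5 comparisons were anti-IgD over PBS with PF-303 and with vehicle, PF-303 over vehicle in stimulated and in unstimulated cells, and the difference between both anti-IgD responses. Adjusted p-values are Benjamini-Hochberg values within a comparison, over 11104 genes, except for other probe sets of a gene, which were adjusted over all probe sets tested. The procedure was tested on simulated data.

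The naming rule gave array values to members called with an absolute log2 change of at least 0.75 in the vehicle response, the PF-303 effect in stimulated cells or the difference between the responses. It also named the member of largest change in each class and, of the other chromatin genes, the 4 with the largest called change in each direction. The choice of further members whose array values or ranges are printed was made after their values were seen. The members and lists were chosen with earlier results of these data known. The labels state no pairing of the samples by replicate number, and the main fit used none. Alternatives changed the offset, the filter, the scaling, the probe set, the variance trend and the samples fitted, added blocks or a spike-in covariate, or left out arrays. Figures were drawn with matplotlib 3.10.9.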

Additional observations from a re-analysis of the deposited data

Results flagged for a closer look

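In 20 of 188 sets of a member's signals in 1 group, a single array stood apart from the others, where chance gives about 1 in 20, or 9.4. Of the 20, 12 came from the 6 high spike-in arrays and 8 from the other 12 arrays. In anti-IgD with PF-303 these were Ehmt1 in replicate 4 (439.518, others 338 to 360.4), Ehmt2 in replicate 1 (448.607, others 267 to 302), Kdm5a in replicate 1 (247.046, others 493 to 615), Kat6a in replicate 1 (774.936, others 455 to 521) and Hdac1 in replicate 4 (859.021, others 1089 to 1182). In anti-IgD with vehicle they were Kdm5b in replicate 5 (180.974, others 196 to 199), Kdm5c in replicate 2 (170.209, others 214 to 224) and Crebbp in replicate 4 (949.256, others 788 to 796).

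In PBS with PF-303, Nsd1 stood high in replicate 5 (535.299, others 463 to 477) and Hdac4 in replicate 3 (69.9018, others 36.5 to 42.4). Low there were Kdm2a in replicate 1 (300.046, others 333 to 339.8), Kat2a in replicate 3 (218.83, others 236 to 241) and Kat7 in replicate 4 (207.848, others 273 to 301). In PBS with vehicle, replicate 4 stood high for Kmt2d (576.026, others 401 to 425), Kmt2e (1627, others 1238 to 1257), Kat6a (951.465, others 543 to 594) and Kat6b (128.16, others 102 to 106), and replicate 3 for Ehmt1 (563.396, others 454 to 469) and Kdm1a (760.124, others 579 to 601). Kat2a stood low in replicate 2 (231.815, others 304 to 305).

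The ratio of the 3' to the 5' probe set of beta-actin, a measure of RNA integrity, was 1.24 to 1.53 in the 6 high spike-in arrays and 1.10 to 1.24 in the other 12. The same ratio of Gapdh had overlapping ranges, 0.698 to 1.22 with a median of 0.770 and 0.703 to 0.826 with a median of 0.752. Their part in these values was not tested.

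The anti-IgD response differed between PF-303 and vehicle by -1.16 for Kdm2b, -0.44 for Suz12, -0.44 for Hdac2, 0.61 for Hdac5 and 0.80 for Hdac7 on the log2 scale, each tested as an interaction in limma. Among all genes 6.66% were called upward and 3.12% downward. Of these 5 calls, that of Kdm2b alone was made in all 31 alternatives.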

How the results depend on the processing

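Of the 27 calls with vehicle, 15 were made in all 31 alternatives, of the 13 for PF-303 in stimulated cells 1 (Kdm2b), of the 20 in PF-303-treated mice 4, and of the 5 for the difference between the responses 1 (Kdm2b). Not every alternative was a full trial of each call. The 15 members with 1 passing probe set kept it in the fit on the second probe set. Leaving out an array of a group not compared changed the spread but not the fold change. The difference was called higher for 1 member with an offset of 64, without a filter, on the second probe set, without a trend and with the spike-in covariate, for 0 after either rescaling or without the 6 high spike-in arrays, and for 4 with the position row as a block. It was called lower for 1 member on the second probe set and for 1 with the position row. With vehicle, 10 members were higher after the shift to one median and 3 with the position row, against 2777 and 1448 of all 11104 genes. For PF-303 in stimulated cells, 2, 4 and 3 were higher after the shift, after quantile normalization and on the second probe set, and 1 lower with the position row. In PF-303-treated mice, 2 were higher on the second probe set or with the spike-in covariate, 0 with the position row or without the 6 high spike-in arrays, and 12 lower with the position row. The counts over all genes also moved with the settings. The causes were not tested. The second Kdm3b probe set reversed its values, to 0.12 with PF-303, 0.22 with vehicle and -0.15 for PF-303 in stimulated cells.

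When each array was left out in turn, higher counts ranged 6 to 7 with vehicle, 3 to 8 for PF-303 in stimulated cells, 0 to 1 in PF-303-treated mice and 1 to 3 for the difference, and lower counts 18 to 23, 4 to 6, 14 to 19 and 3 to 3. In unstimulated cells 0 to 1 were lower. Same-numbered arrays correlated at -0.16 to 0.22 in 24 pairs, 7 of them over 0.1, and 3 of 18 arrays correlated best with their own number. With the replicate number as a block, 6 members were higher and 22 lower with vehicle, 5 and 5 for PF-303 in stimulated cells, 1 and 20 in PF-303-treated mice, 2 and 3 for the difference, and 0 and 0 in unstimulated cells.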
